A study of Mus musculus with 24 samples.

Results

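The genes described here are 36 genes of the hypoxia response and of glycolysis, read on arrays of MLO-Y4 cells, a mouse osteocyte-like cell line. They were chosen by name, as glucose transporters, glycolytic enzymes, genes of lactate and pyruvate handling, oxygen sensors, secreted proteins and other known targets of the hypoxia-inducible factor. A gene was read from the array row whose only gene symbol is that gene, and from the brightest such row where there were several. By this rule 34 of the 36 genes had a row, and all 34 passed the filter on dim rows, among 14489 genes tested in all. The enzymes Gpi1 (glucose-6-phosphate isomerase) and Eno1 (the widespread enolase) have no row with 1 symbol and are not analysed here. Gapdh, a much-used glycolytic gene outside the list, appears only in rows with several symbols and is not analysed here either.

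The study asked how a high magneto-gravitational environment changes gene expression in these cells, and how blocking connexin 43 hemichannels alters it. Hemichannels are pores in the cell membrane built from connexins, through which osteocytes release small molecules. All 24 arrays are of MLO-Y4 cells, in 8 groups of 3. In the IgG arm the dishes received an irrelevant rabbit IgG at a dilution of 1:50, and in the E2 arm the hemichannel-blocking antibody Cx43(E2) at the same dilution, 28 µg/ml, for 30 min at 37 °C and 5% CO2. After that, cells of each arm stayed in a normal incubator, the control called C, or were placed at one of 3 positions of a platform in a strong magnet, called 1g, 2g and ug after the effective gravity there. The 1g position therefore shares the magnet with the other positions. How long the dishes stayed on the platform is not stated in the sources used here. Every dish, the controls included, received an antibody. Whether the 3 arrays of a group came from separate cultures is not stated, so p-values measure the spread between these arrays, which may be technical. A cell line is 1 clonal source, and these arrays show nothing about osteocytes in bone.

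The osteocyte label was checked against marker genes. Pdpn, an early osteocyte marker, had a log2 level of 12.7 and Gja1, the gene of connexin 43, 11.7, while Dmp1, Phex and Mepe, markers of mature mineralizing osteocytes, fell below the filter on dim rows. Sost and Fgf23, secreted by mature osteocytes, passed it at 7.07 and 7.04. Of the leukocyte genes, Ptprc, Adgre1 and Itgam fell below the filter, and Cd68 (8.66) and Cd3e (6.40) passed it. The titles number the arrays 1 to 3 in each arm. A set means the 4 arrays of 1 arm that carry the same number, and the set IgG 2, for example, consists of the C, 1g, 2g and ug arrays numbered 2 in the IgG arm. Arrays of 1 set deviated together from their group means, across genes, at r between 0.246 and 0.756 in the IgG arm and between 0.195 and 0.812 in the E2 arm (18 pairs each). The sets divided by antibody only in part. Their mean profiles over all 14489 genes were compared as deviations from the mean of the 6 sets. IgG 1 and IgG 2 correlated at 0.83 and E2 1 and E2 2 at 0.72. Each of the first pair correlated with each of the second at -0.83 to -0.81. The sets numbered 3 lay nearer to the other arm. The profile of IgG 3 correlated at 0.33 with E2 2 and at -0.46 with IgG 2. That of E2 3 correlated at 0.42 with IgG 2 and at -0.52 with E2 2. The reason for this was not tested. Some calls, counts and ranges that set IgG 3 or E2 3 could decide are therefore also given without it. The others, among them the counts of groups that do not overlap, are given with all sets only.

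The hypoxia-inducible factor is a transcription factor whose alpha subunit is made all the time and destroyed while oxygen is present, because prolyl hydroxylases of the Egln family mark it for breakdown. When oxygen falls, the subunit persists, pairs with its partner and turns on genes for glucose uptake, glycolysis, lactate export, vessel growth and collagen modification, so that a cell makes energy with less oxygen. Osteocytes live enclosed in mineral and are known to use this response and glycolysis. Since the factor is controlled mainly at the protein level, RNA arrays read its targets and regulators and not its activity.

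The factor binds short DNA motifs around the letters ACGTG or GCGTG. These were searched in RefSeq promoter windows (mouse build GRCm38.p6) that run from 250 bases before to 50 bases after a transcription start, on both strands, so that the reverse letters CACGT and CACGC count too and a palindromic CACGTG counts on each strand. Windows were found for 33 of the 36 genes. Of their 50 windows, 41 (82%) held at least 1 motif, and so did at least 1 window of 30 of the 33 genes. Among all 32851 windows of this length the share was 43.77%, and among the 6218 windows at least as rich in G and C as the median of these 50 it was 71.79%. A match is a description of letters and no evidence of binding. The windows of 4 genes that the results below turn on follow, with every motif in capitals. Adm was called between platform and incubator in 1 of the fits, Hif1a encodes a subunit of the factor itself, and Stc2 and Ldha were called between sets. The windows are chr7:110627407-110627706 (plus strand) for Adm, chr12:73907617-73907916 (plus strand) for Hif1a, chr11:31370012-31370311 (minus strand) for Stc2 and chr7:46845554-46845853 (plus strand) for Ldha.
Adm: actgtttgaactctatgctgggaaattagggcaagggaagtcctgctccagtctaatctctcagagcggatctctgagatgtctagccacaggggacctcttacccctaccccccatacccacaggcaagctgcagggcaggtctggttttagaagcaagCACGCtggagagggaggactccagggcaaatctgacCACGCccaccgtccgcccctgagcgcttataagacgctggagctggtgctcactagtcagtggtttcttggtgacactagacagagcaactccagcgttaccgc
Hif1a: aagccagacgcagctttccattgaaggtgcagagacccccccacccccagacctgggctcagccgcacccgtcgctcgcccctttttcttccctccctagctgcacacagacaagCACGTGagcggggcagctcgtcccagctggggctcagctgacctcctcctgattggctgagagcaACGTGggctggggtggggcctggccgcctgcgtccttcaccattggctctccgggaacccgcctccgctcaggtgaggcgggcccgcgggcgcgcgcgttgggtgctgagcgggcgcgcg
Stc2: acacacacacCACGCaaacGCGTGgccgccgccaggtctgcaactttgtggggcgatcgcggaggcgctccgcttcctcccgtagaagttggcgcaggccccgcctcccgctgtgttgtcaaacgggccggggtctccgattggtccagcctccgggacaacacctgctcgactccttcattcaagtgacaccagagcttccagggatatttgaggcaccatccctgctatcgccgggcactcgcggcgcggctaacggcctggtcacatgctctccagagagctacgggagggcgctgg
Ldha: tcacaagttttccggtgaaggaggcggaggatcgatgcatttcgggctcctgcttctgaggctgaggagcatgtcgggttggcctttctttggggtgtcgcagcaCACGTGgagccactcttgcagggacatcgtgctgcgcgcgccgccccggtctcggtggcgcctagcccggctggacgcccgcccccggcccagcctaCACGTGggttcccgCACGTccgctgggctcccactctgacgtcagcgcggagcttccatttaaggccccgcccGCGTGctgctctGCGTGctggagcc
The Ldha window shown held 7 motifs and the other of its 2 windows held 2. The Hif1a window held 3, and those of Adm and Stc2 held 2 each. No window was found for Stc1, Slc2a3 or Ndrg1.

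The values are log2 intensities as deposited, so a difference of 1 is a doubling, and a difference between groups was tested with limma across all 14489 genes with Benjamini-Hochberg adjustment within a comparison. The design as set compares the 8 group means with no term for the set. Because arrays of a set moved together, each platform comparison was also fitted with the set as a block, that is, as differences within sets. An adjusted p below 0.05 counts as called. Fits with and without the block are named throughout.

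**Figure D1:**
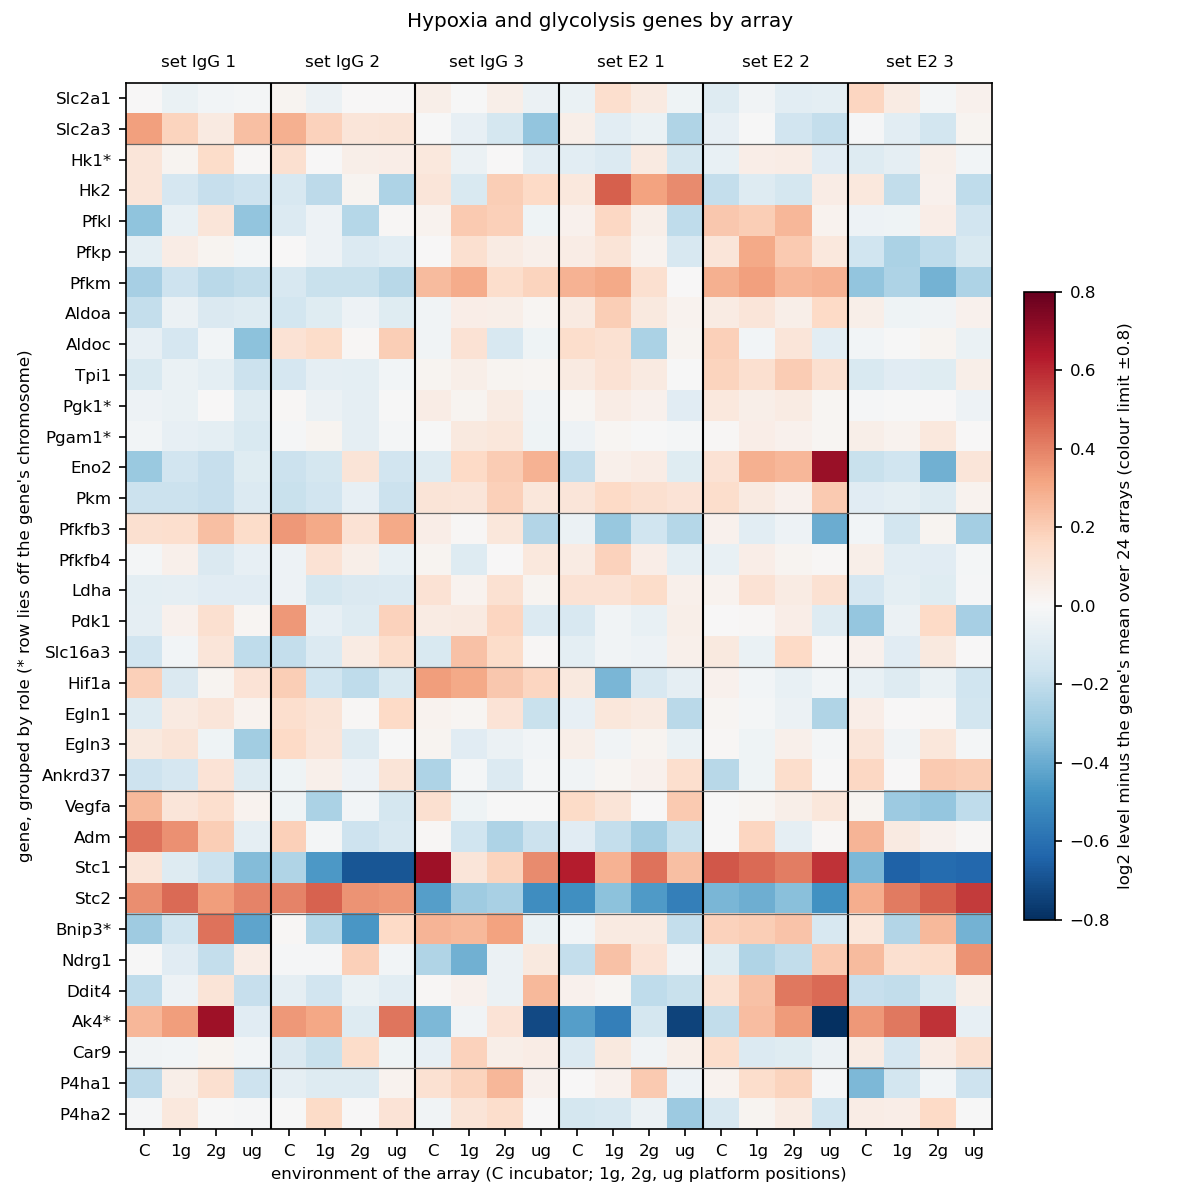
Each row is 1 of the 34 genes, grouped by role in the order glucose transport, glycolytic enzymes, glycolytic control and lactate or pyruvate handling, oxygen sensing, secreted proteins, mitochondrial, stress and acid-base genes, and collagen prolyl hydroxylases. Each column is 1 of the 24 arrays, ordered by set. Colour is the log2 level minus the gene's mean over all arrays. Stc1 and Stc2 form opposite blocks that follow the sets, with Stc1 high in IgG 3, E2 1 and E2 2 and Stc2 high in IgG 1, IgG 2 and E2 3.

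The mean of the 3 platform positions against the incubator is the comparison with the most arrays within an arm. In the IgG arm, 2 of the 34 genes were called with the block, both lower on the platform. They were Adm, which encodes the vasodilator peptide adrenomedullin, and Stc1, which encodes the secreted glycoprotein stanniocalcin 1. Over all genes, 0.587% were called lower and 0.117% higher in that fit, and without the block no gene was called in either direction, although 9.99% had an unadjusted p below 0.05. In the E2 arm no gene was called in either fit, with 2.8% below 0.05 unadjusted without the block and 6.93% with it.

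Adm in the IgG arm had log2 levels of 10.39, 10.14 and 9.96 in the C arrays of sets IgG 1, IgG 2 and IgG 3. The corresponding levels were 10.32, 9.94 and 9.79 at 1g, 10.15, 9.79 and 9.71 at 2g, and 9.88, 9.82 and 9.78 at ug. Every platform array was below the C array of its own set, and the 3 ug arrays all lay below the lowest C array. The platform mean minus C was -0.27, -0.29 and -0.20 in the 3 sets. Their mean, -0.26 (1.19-fold lower), had a standard error of 0.059 with the block (limma, adjusted p = 0.0460) and of 0.117 without it (adjusted p = 0.476). The platform mean was below C in all 3 IgG sets for 11 of the 34 genes (32.4%), against 26.8% of all genes. It was above C in all 3 for 10 (29.4%), against 26.2%. A direction shared by the 3 sets, also for Stc1 and Hif1a below, was thus common in this arm. The share of genes with every single platform array below C is not given here.

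In the E2 arm, Adm had levels of 9.86, 9.95 and 10.23 at C, 9.76, 10.12 and 10.02 at 1g, 9.68, 9.88 and 9.99 at 2g, and 9.78, 9.96 and 9.96 at ug in sets E2 1, E2 2 and E2 3. The platform arrays overlapped the C arrays, and the platform mean was lower in sets E2 1 (-0.12) and E2 3 (-0.23) and higher in set E2 2 (0.04). The mean difference was -0.10 ± 0.06 with the block, which was not called (limma, adjusted p = 0.752). The difference between the arms, 0.15, had a 95% interval of -0.02 to 0.32 with the block and was not called either (adjusted p = 0.461), so an effect particular to 1 arm was not shown.

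Stc1 differed more between sets than between environments. In sets IgG 1, IgG 2 and IgG 3 its log2 level was 8.21, 7.87 and 8.79 at C, 8.01, 7.65 and 8.21 at 1g, 7.94, 7.43 and 8.29 at 2g, and 7.77, 7.43 and 8.49 at ug. Each platform array was below the C array of its set. The groups overlapped because the sets differed in level, with IgG 3 highest and IgG 2 lowest throughout. The platform mean minus C was -0.30, -0.37 and -0.46 in the 3 sets. Their mean, -0.38 (1.30-fold lower), had a standard error of 0.077 with the block (limma, adjusted p = 0.0329) and of 0.312 without it (adjusted p = 0.679).

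In sets E2 1, E2 2 and E2 3, Stc1 had levels of 8.74, 8.61 and 7.75 at C, 8.39, 8.56 and 7.46 at 1g, 8.55, 8.52 and 7.50 at 2g, and 8.35, 8.69 and 7.49 at ug. The platform mean minus C was -0.31 in E2 1, -0.01 in E2 2 and -0.27 in E2 3, lower in each but close to 0 in E2 2. With the block this gave -0.20 ± 0.08 (limma, adjusted p = 0.662). The difference between the arms was 0.18, with a 95% interval of -0.05 to 0.40 and an adjusted p of 0.497 with the block.

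Hif1a, the gene of the factor's oxygen-regulated subunit, had an adjusted p just above the threshold in the IgG arm. Its levels were 11.94, 11.94 and 12.07 at C, 11.63, 11.58 and 12.04 at 1g, 11.76, 11.54 and 11.96 at 2g, and 11.85, 11.62 and 11.91 at ug. Set IgG 3 was the highest in every environment, and each platform array was again below the C array of its set. The platform mean minus C was -0.19, -0.35 and -0.10 in the 3 sets, with a mean of -0.21 ± 0.057 with the block (limma, adjusted p = 0.0701). In the E2 arm the values were 11.82, 11.78 and 11.68 at C, 11.38, 11.72 and 11.64 at 1g, 11.62, 11.68 and 11.69 at 2g, and 11.67, 11.72 and 11.58 at ug. There the mean difference was -0.13 ± 0.06 (adjusted p = 0.701 with the block).

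**Figure D2:**
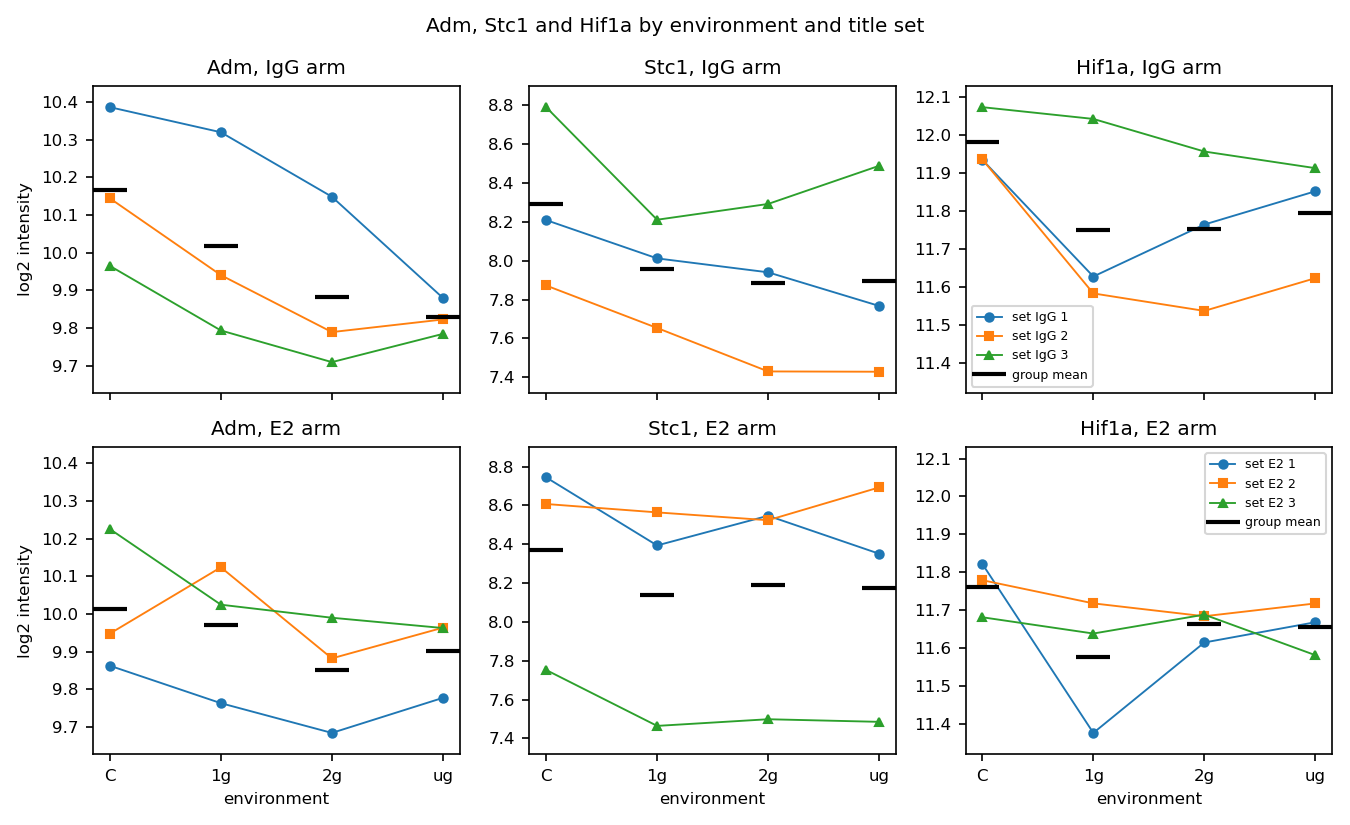
Log2 intensity (vertical axis) of Adm, Stc1 and Hif1a in the 4 environments (horizontal axis), IgG arm above and E2 arm below. Lines join the 4 arrays of a set and black bars are group means of 3 arrays. In the IgG arm every line starts at its highest point in C for all 3 genes, and the Stc1 lines of E2 1 and E2 2 lie about 1 log2 unit above that of E2 3.

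Averaged over both arms, Adm (-0.18 ± 0.042, limma, adjusted p = 0.0486) and Stc1 (-0.29 ± 0.054, adjusted p = 0.0225) were called lower with the block. Hif1a (-0.17 ± 0.040) was not called (adjusted p = 0.0520). In that fit 0.566% of all genes were called lower and 0.104% higher, and without the block none was called, with 6.19% below 0.05 unadjusted.

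The calls on Adm and Stc1 rest on the block within arm and on all 3 IgG sets together. With the set as a random block the adjusted p in the IgG arm was 0.125 for Adm and 0.264 for Stc1. With a block by title number alone it was 0.474 and 0.678, and in a fit on the IgG arrays only, without a block, 0.339 and 0.480. With the block and without set IgG 1, IgG 2 or IgG 3, none of the 34 genes was called in the IgG arm. The differences themselves then ran from -0.28 to -0.24 for Adm and from -0.41 to -0.34 for Stc1. The IgG arrays numbered 2 at 2g and ug differed from each other in the opposite direction from sets IgG 1 and IgG 3 for Ak4 and Bnip3, among others (values are given with the comparison of positions). Without these 2 arrays none of the 34 genes was called either, at -0.26 for Adm (adjusted p = 0.176) and -0.34 for Stc1 (adjusted p = 0.158). Leaving out an E2 set changes only the estimate of the spread in the IgG arm. Without E2 1 the calls there were Adm, Stc1 and Hif1a (adjusted p = 0.0182 for Hif1a), and without E2 2 Stc1 alone (adjusted p = 0.0435, against 0.0637 for Adm). Stc1 was also called with the block after quantile normalization, with no filter on dim rows and with no variance trend (adjusted p between 0.0403 and 0.0483), settings in which Adm was not. Over both arms, the call on Stc1 held without IgG 3 (adjusted p = 0.0498) and without E2 2 (0.0477), and with any other set left out none was called.

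Outside the secreted proteins no role group had a call. None of the 2 glucose transporters, 12 glycolytic enzymes, 5 genes of glycolytic control and lactate or pyruvate handling, 4 oxygen-sensing genes, 5 mitochondrial, stress and acid-base genes and 2 collagen prolyl hydroxylases was called in either arm. In the IgG arm 17 of the 34 genes lay higher and 17 lower, with a median of -0.0023 against 0.0049 over all genes. In the E2 arm the split was again 17 and 17, with a median of 0.00056 against -0.019 over all genes. The 2 other secreted proteins gave smaller values in the IgG arm, -0.14 ± 0.05 for Vegfa, the vascular endothelial growth factor, and 0.04 ± 0.06 for Stc2, the relative of Stc1 (limma with the block, adjusted p = 0.134 and 0.730).

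Slc16a3 (the lactate exporter Mct4) had levels of 6.97, 6.93 and 7.004 at C in the IgG arm, and of 7.10, 7.02 and 7.36 at 1g, 7.22, 7.19 and 7.27 at 2g and 6.92, 7.27 and 7.14 at ug. The 1g and 2g arrays all lay above the C arrays, while 1 ug array lay below them. The platform mean was 0.20 ± 0.07 above C with the block (limma, adjusted p = 0.144). Slc2a3, the glucose transporter Glut3, was -0.17 ± 0.06 from C in the IgG arm (adjusted p = 0.154).

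The other genes stayed within narrower bounds on the platform, and limma called none of them. Among the enzymes in the IgG arm, the differences ran from -0.10 ± 0.08 for Hk2 to 0.19 ± 0.08 for Eno2, with 0.03 ± 0.03 for Tpi1 (triosephosphate isomerase) and 0.03 ± 0.03 for Pkm. Ldha lay at -0.05 ± 0.03 and Slc2a1, the basal glucose transporter Glut1, at -0.04 ± 0.03, so that their 95% intervals exclude changes as large as that of Stc1. Among the stress genes, Ndrg1 (0.04 ± 0.09), Ddit4 (0.07 ± 0.08) and Car9 (0.09 ± 0.08) in the IgG arm had standard errors nearly as large as the differences or larger. Ankrd37, an ankyrin-repeat gene induced by the factor, was at 0.13 ± 0.07 in the IgG arm and 0.10 ± 0.07 in the E2 arm. Standard errors here are those of the fit with the block.

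**Figure D3:**
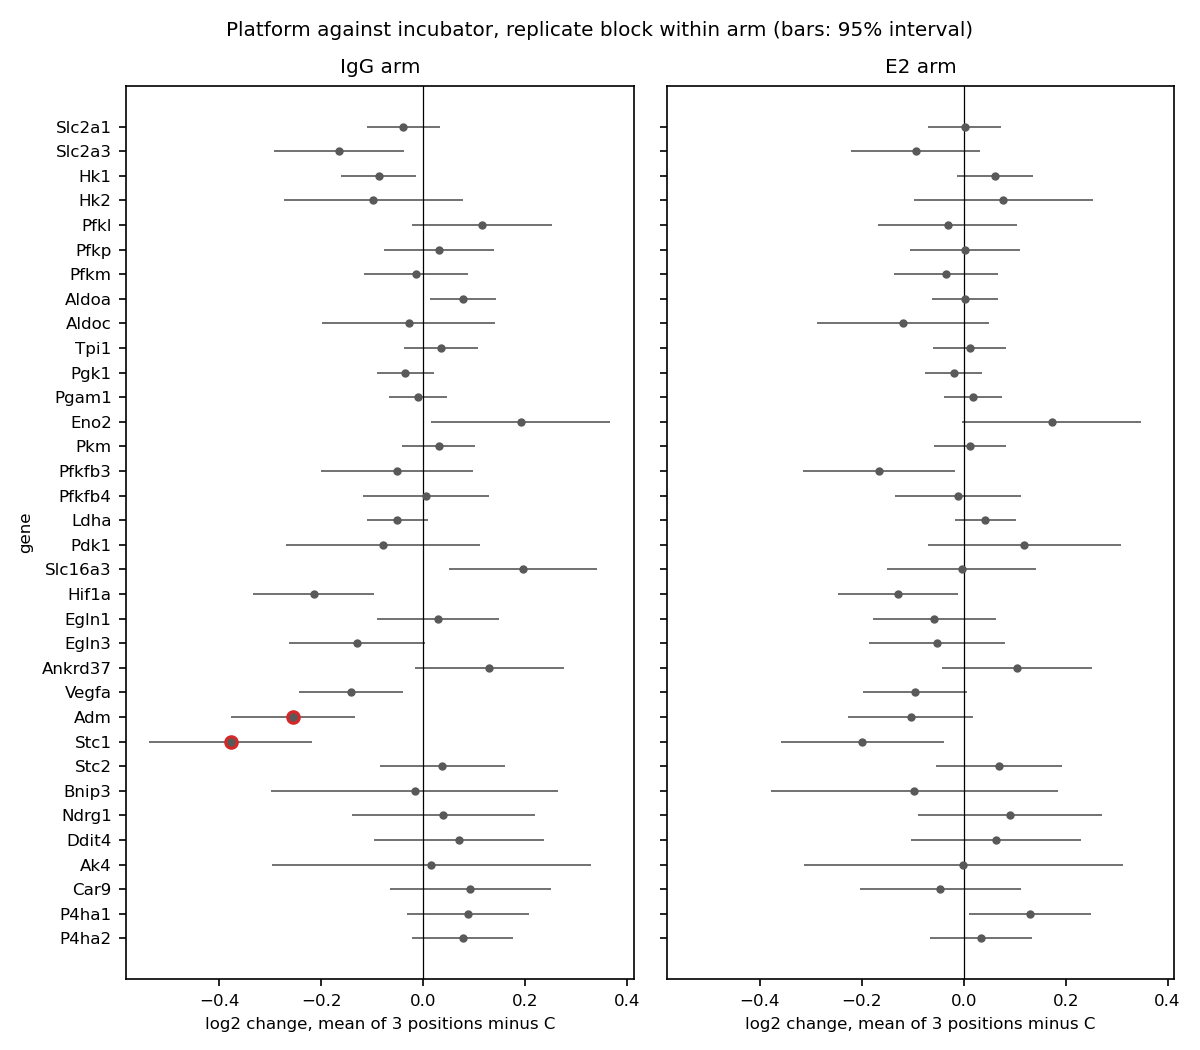
Points give the log2 difference between the mean of the 3 platform positions and C for each of the 34 genes (vertical axis), from the fit with the replicate block, in the IgG arm (left) and the E2 arm (right). Bars are 95% intervals, and large red points mark genes called at an adjusted p below 0.05. Adm and Stc1 in the IgG arm are the only red points, at -0.26 and -0.38.

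Single positions against C were compared next, 3 in each arm. These comparisons share the C arrays of their arm. No member was called in any of them, with or without the block. Over all genes the block brought 3 higher (0.0207%) and 4 lower (0.0276%) calls at IgG 1g and no call at the other positions. At IgG 1g the smallest unadjusted p was that of Slc16a3 (0.19 ± 0.09), followed by Hk1 (-0.11 ± 0.05, from a doubtful row), Hif1a (-0.23 ± 0.11) and P4ha2 (0.13 ± 0.08). At IgG 2g it was again Slc16a3 (0.26 ± 0.09, limma, adjusted p = 0.505), then Egln3 (-0.15 ± 0.07), Hif1a (-0.23 ± 0.11) and Adm (-0.28 ± 0.14). Egln3 encodes an oxygen sensor that is itself a target of the factor.

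At IgG 1g, 5.88% of the 34 genes had 3 arrays all above the 3 C arrays and 5.88% all below. Over all genes these shares were 7.91% and 7.96%. At IgG 2g they were 8.82% and 2.94% of the 34 genes, against 10.3% and 8.97% of all genes. At the ug position of the IgG arm, 5 of 34 genes (14.7%) had 3 arrays all below the 3 C arrays, against 5.69% of all genes. At ug none had all arrays above, against 7.36%. Among them were Egln3 (-0.19 ± 0.07), Adm (-0.34 ± 0.14), Hif1a (-0.19 ± 0.11) and Hk1 (-0.11 ± 0.05), which overlapped C in its second row and left 4. Egln3 had levels of 6.75, 6.84 and 6.70 at C and of 6.40, 6.67 and 6.65 at ug, and limma gave an adjusted p of 0.949. Egln3 is dim, with a mean over all arrays of 6.67, below the lower quartile of the genes tested (6.83).

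In the E2 arm at 1g the smallest unadjusted p values were those of Hif1a (-0.18 ± 0.11) and Pfkfb3 (-0.17 ± 0.11), which makes the activator of phosphofructokinase. At 2g they were those of Hk1 (0.14 ± 0.05) and of P4ha1 (0.23 ± 0.12), a subunit of the enzyme that hydroxylates collagen. Hk1 was the 1 gene of 34 (2.94%) whose 2g arrays all lay above C, against 1.97% of all genes, and its second row gave 0.038 ± 0.15. At 2g, 13 of the 34 genes (38.2%) were higher than C in 3 of 3 sets, against 11.3% of all genes, and 4 were lower, against 15.4%. With the rows of the genes' own chromosomes 11 were higher. At 2g in the IgG arm 5 were higher (14.7%), against 21.9%, and 5 lower, against 24.2%. At ug the members with the smallest p were Egln1 (-0.20 ± 0.08), the main oxygen-sensing hydroxylase, and Pfkfb3 (-0.29 ± 0.11). Eno2, the neuronal enolase, was 0.31 ± 0.19 above C. Its levels were 7.84, 8.15 and 7.85 at C and 7.94, 8.72 and 8.13 at ug, so that the ug arrays overlapped those at C and the array of E2 2 was the highest.

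Positions were also compared with each other, which leaves the incubator out. In the IgG arm the arrays of different positions overlapped for all 34 genes. Over all genes, 2.05% to 4.18% did not overlap there, by comparison and direction. In the E2 arm at ug against 2g, 6 of the 34 genes (17.6%) had 3 ug arrays all below the 3 arrays at 2g, against 3.95% of all genes, and 6 had an unadjusted p below 0.05, against 3.82%. The genes that did not overlap were Egln1, Hk1, Pfkfb3, Bnip3, Pfkl and Egln3. With the rows of the genes' own chromosomes Hk1 and Bnip3 overlapped, and Pgam1, in a row that is doubtful too, did not, which left 5. In these rows 3 genes (Egln1, P4ha2 and Pfkfb3) had an unadjusted p below 0.05. None was called by limma with or without the block. Egln1 had levels of 9.26, 9.24 and 9.33 at ug and of 9.55, 9.43 and 9.49 at 2g, a difference of -0.21 ± 0.08, and the groups did not overlap. Pfkfb3 had 7.51, 7.34 and 7.46 at ug and 7.57, 7.69 and 7.76 at 2g (-0.24 ± 0.11). P4ha2, the other collagen prolyl hydroxylase subunit, had 8.53, 8.67 and 8.82 at ug and 8.78, 8.89 and 8.99 at 2g (-0.21 ± 0.08), lower in each set though the groups overlapped.

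Ak4, the mitochondrial adenylate kinase, gave the widest difference of that comparison. Its levels were 8.06, 7.84 and 8.73 at ug and 8.65, 9.14 and 9.37 at 2g in the E2 arm. The difference was -0.85 ± 0.32 without the block (limma, adjusted p = 1) and ± 0.18 with it (adjusted p = 0.161). It was called with the block without set IgG 2 (adjusted p = 0.0104). The brightest Ak4 row, however, lies among rows of another chromosome, and the Ak4 row among rows of the gene's own chromosome gave -0.25 ± 0.20 for the same comparison. In the IgG arm at ug against 2g, no member was lower in 3 of 3 sets, against 9.08% of all genes. Nor was any higher in all 3, against 10.1%. None was called and the sets went apart. Ak4, for example, differed by -0.77 in IgG 1, 0.53 in IgG 2 and -0.83 in IgG 3, and Bnip3 by -0.86, 0.62 and -0.38.

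The antibody was compared next, E2 against IgG in each environment. In the incubator it was the 1 comparison with calls over all genes and no block, 1.6% higher and 1.32% lower in E2, and none of the 34 genes was among them. Aldoa, the muscle-type aldolase, came closest among genes read at their own chromosome. Its C arrays had levels of 12.53, 12.57 and 12.69 in the IgG arm and of 12.79, 12.78 and 12.77 in the E2 arm. The E2 arrays were all above the IgG arrays, with a difference of 0.18 ± 0.06 (limma, adjusted p = 0.0677), and without set IgG 3 the gene was called at 0.23 (adjusted p = 0.0417). Hif1a (-0.22 ± 0.11), Pdk1 (-0.26 ± 0.11), a kinase that inhibits pyruvate dehydrogenase, and Slc16a3 (0.17 ± 0.09) were not called. In all, 2 of the 34 genes lay entirely higher in E2 and 3 entirely lower, against 19% and 16.1% of all genes.

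On the platform the members with the smallest p were Pfkfb3 at 1g (-0.33 ± 0.11), at 2g (-0.21 ± 0.11) and at ug (-0.37 ± 0.11), Egln1 at ug (-0.21 ± 0.08) and Aldoa at ug (0.14 ± 0.06), and none was called. With the 4 arrays of each set averaged first, so that 3 E2 sets stand against 3 IgG sets, no gene at all was called, while 21.6% had an unadjusted p below 0.05. Pfkfb3 had set means of 7.90, 8.002 and 7.71 in the IgG arm and of 7.55, 7.61 and 7.63 in the E2 arm. The E2 sets were all lower, and the difference was -0.27 ± 0.08 (limma, adjusted p = 0.159). Aldoa had set means of 12.60, 12.62 and 12.74 against 12.81, 12.81 and 12.72, a difference of 0.13 ± 0.05 (adjusted p = 0.198) with E2 3 between IgG sets.

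Whether a platform effect differed between arms was tested as an interaction for each position, for the positions against each other and for the mean of positions. No member was called in any of these, with or without the block. The smallest adjusted p among the members with the block was 0.330, for Hk1 on the mean of positions, a test added after the data were seen.

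The sets were compared with a moderated F test over the 4 within-arm set terms, in a fit that keeps the 8 group means. It called 23 of the 34 genes (67.6%), against 41.9% of all genes. However, 25 of the 34 genes lay above the median level of all genes tested. The share called among genes of like level is not given here. By role the called genes were both glucose transporters, 9 of 12 glycolytic enzymes, 2 of 5 genes of glycolytic control and lactate or pyruvate handling, 1 of 4 oxygen-sensing genes (Hif1a), all 4 secreted proteins, 3 of 5 mitochondrial, stress and acid-base genes and both collagen prolyl hydroxylases. With any 1 set left out the count ran from 16 (without IgG 3) to 23. The share of all genes called in those fits is not given here, so these counts cannot be set against the 41.9%. What a set shares (a day, a passage, a labelling run) is not given in the sources used here, so its nature was not tested.

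Stc1 had the widest spread between sets, with set means of 7.98, 7.60 and 8.45 in IgG 1, IgG 2 and IgG 3 and of 8.51, 8.60 and 7.55 in E2 1, E2 2 and E2 3. That is a range of 1.05, or 2.07-fold (limma F test, adjusted p = 4.57e-10). Stc2 ran the other way. Its set means were 9.39, 9.40 and 8.64 in the IgG arm and 8.55, 8.61 and 9.44 in the E2 arm, a range of 0.89 or 1.85-fold (adjusted p = 2.81e-11). Without E2 3 the range was 1.001 for Stc1 and 0.85 for Stc2, and without IgG 3 both were the same as with all sets. Within a set its 4 arrays lay close together, from 9.34 to 9.46 in IgG 1 and from 8.51 to 8.75 in IgG 3. Sets IgG 1, IgG 2 and E2 3 were thus low in Stc1 and high in Stc2, and sets IgG 3, E2 1 and E2 2 the reverse.

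Pfkm, the muscle-type phosphofructokinase, was the enzyme with the widest spread. Its set means were 9.75, 9.79 and 10.18 in the IgG arm and 10.14, 10.25 and 9.67 in the E2 arm, a range of 0.58 or 1.499-fold (limma F test, adjusted p = 4.71e-09). The range of its 4 environment means was 0.07 in the IgG arm and 0.12 in the E2 arm, and without E2 3 the range of its set means was 0.498. Eno2 (range 0.52), Hk2, the inducible hexokinase (0.46), Pfkfb3 (0.45) and Ddit4, a stress-induced inhibitor of mTOR signalling (0.42), came next after Ak4 (0.79) among the members. At the other end, Egln3 (0.07), Pfkfb4 (0.09) and Car9, the membrane carbonic anhydrase (0.10), differed least between sets, and none of the 3 was called.

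**Figure D4:**
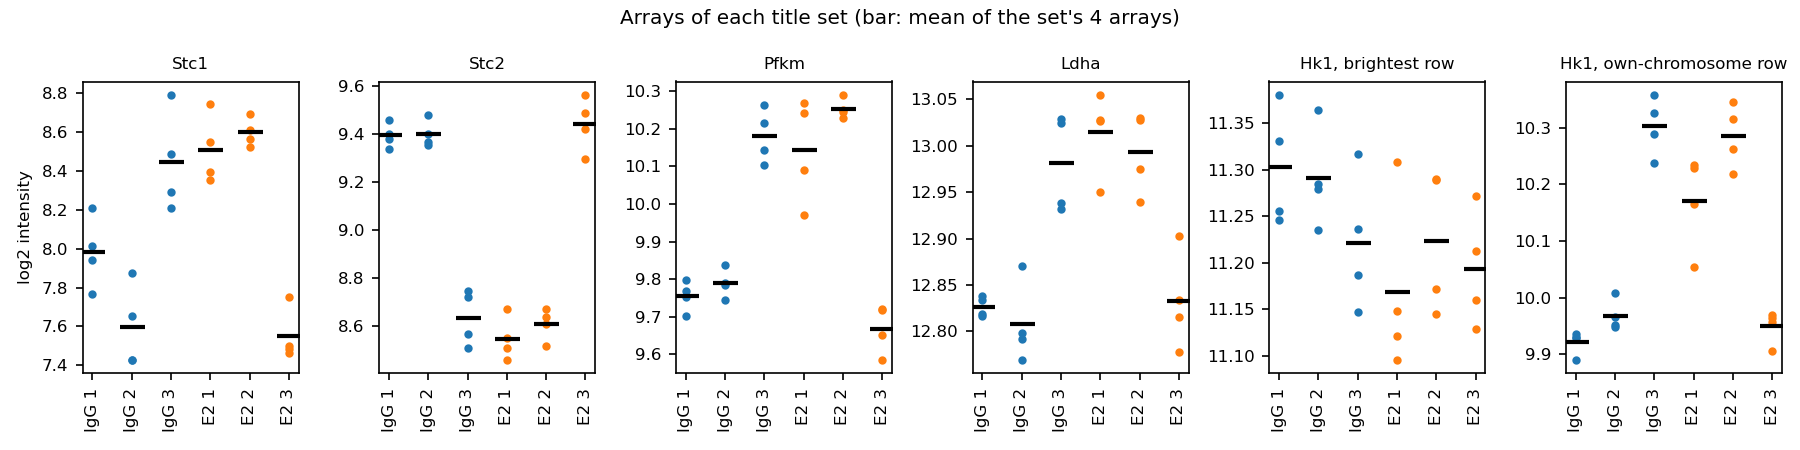
Each point is the log2 intensity of 1 array (vertical axis) and each bar is the mean of the 4 arrays of a set (horizontal axis), with IgG sets in blue and E2 sets in orange. Stc1, Pfkm and Ldha are high in IgG 3, E2 1 and E2 2, and Stc2 is low there. Hk1 shows that pattern in the row among its own chromosome's rows (right) and not in its brightest row.

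Of the 12 glycolytic enzymes 8 shared 1 order of sets, and Hk1 (as used), Hk2, Aldoc and Pgam1 did not. For the 8 (Pfkl, Pfkp, Pfkm, Aldoa, Tpi1, Pgk1, Eno2 and Pkm) the 3 highest set means were those of IgG 3, E2 1 and E2 2, and for none were they those of IgG 1, IgG 2 and E2 3. Over all genes these shares were 16.9% and 20.1%. The same held for Ldha, the lactate dehydrogenase subunit that turns pyruvate into lactate. Its set means were 12.83, 12.81 and 12.98 in the IgG arm and 13.01, 12.99 and 12.83 in the E2 arm, a range of 0.21 or 1.15-fold (limma F test, adjusted p = 7.53e-06). Pkm, the pyruvate kinase, had 11.52, 11.54 and 11.80 against 11.81, 11.80 and 11.62. Stc1, Bnip3 and P4ha1 also had that order, which makes 12 of the 34 genes, and Slc2a3, Stc2 and Ak4 had the opposite one. With IgG 3 left out, both E2 1 and E2 2 were above the remaining 3 sets for 8 of the 12 enzymes, against 23.1% of all genes, and with E2 3 left out the order held for 10 of the 12, against 29.1%. These counts describe an order seen in the same arrays and carry no test.

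Within the IgG arm, set IgG 3 was the highest for 10 of the 12 enzymes, against 40.8% of all genes, and within the E2 arm E2 3 was the lowest for 9 of the 12, against 34%. Over the 34 genes, the mean profiles of IgG 3 and E2 2 correlated at 0.75 and those of IgG 3 and IgG 2 at -0.81, each as deviations from the mean of the 6 sets. These deviations sum to 0 for a gene, which by itself pushes correlations below 0, and the genes are not independent. The range of set means exceeded the range of environment means in 25 of the 34 genes in the IgG arm (73.5%, against 47.7% of all genes) and in 20 in the E2 arm (58.8%, against 62.7%). Leaving out any set can only narrow the range of set means, and it averages fewer arrays per environment. The values without IgG 3 or E2 3 therefore cannot show that 1 set decides these counts. Leaving out another set was not tried for these ranges. Without IgG 3 the range of the remaining pair of IgG sets was the wider one in 4 genes (11.8%, against 7.94%), and without E2 3 that of the remaining E2 pair in 5 (14.7%, against 17.9%).

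**Figure D5:**
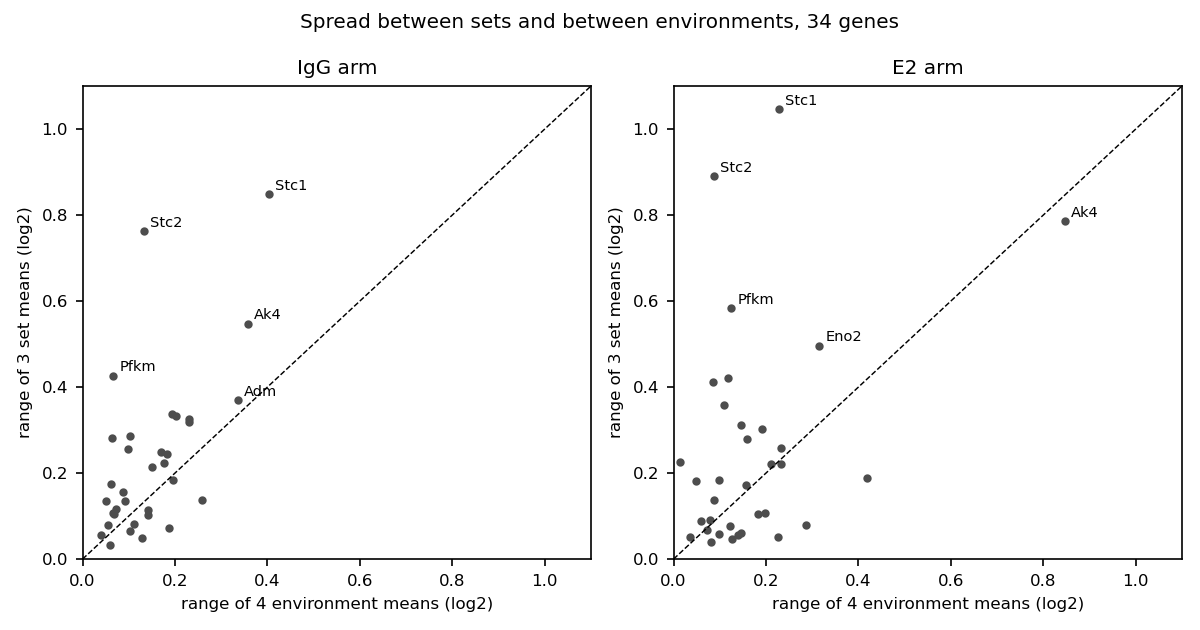
For each of the 34 genes, the range of the 4 environment means (horizontal axis, log2) is plotted against the range of the 3 set means (vertical axis, log2) in the IgG arm (left) and the E2 arm (right). The dashed line marks equal ranges. In the IgG arm 25 genes and in the E2 arm 20 genes lie above it, with Stc1 and Stc2 farthest up.

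Some marker genes differed between sets as well. Cd68, a macrophage gene that other cells also express in lysosomes, had set means of 9.12, 9.14 and 8.09 in the IgG arm and 8.26, 8.21 and 9.14 in the E2 arm, high where Stc2 was high. Of the 6 leukocyte genes 5 had a row and 2 passed the filter, and the other of these, Cd3e, was not called between sets (adjusted p = 0.417). The leukocyte list averaged 5.95 to 6.24 by set. Fabp4, a fat-cell gene, was called and ran with Cd68, at 10.27, 10.30 and 9.97 and at 9.63, 9.82 and 10.30, while Plin1 was not called and Adipoq and Lep were below the filter. The bone markers did not share 1 direction. Alpl (bone alkaline phosphatase) ran with Stc1, at 10.14, 10.11 and 10.60 and at 10.59, 10.60 and 10.01, as did Col1a1, at 9.60, 9.57 and 10.01 and at 10.19, 9.89 and 9.34, and Gja1. Pdpn was called with another order, at 12.80, 12.74 and 12.66 and at 12.69, 12.56 and 12.73, and Sost and Fgf23 were not called. The bone list averaged 7.93 to 8.13 by set over 11 of its 14 genes. In bulk RNA a change in the number of cells of a kind and a change in RNA per cell cannot be told apart, and the part of these markers in the results was not tested.

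For 5 of the 34 genes the brightest row is doubtful. Row numbers on this array run along the chromosomes, and 94.3% of neighbouring rows with 1 symbol belong to 1 chromosome. The rows used for Hk1, Pgk1, Pgam1, Bnip3 and Ak4 lie instead among rows of another chromosome. Pgk1, with 2 rows that hold identical values on all 24 arrays, and Pgam1, with another such pair, are known for near-identical copies in the genome, and their values are uncertain for that reason. Each of the 5 genes also has a row among rows of its own chromosome.

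The choice of row mattered most for Hk1, the housekeeping hexokinase. Its brightest row (10414661) had set means of 11.30, 11.29 and 11.22 in the IgG arm and 11.17, 11.22 and 11.19 in the E2 arm, and the F test did not call it (limma, adjusted p = 0.247). The row among its own chromosome's rows (10369541) had 9.92, 9.97 and 10.30 in the IgG arm and 10.17, 10.29 and 9.95 in the E2 arm, the order of the other enzymes, and was called (adjusted p = 8.61e-08). Over 26 comparisons the 2 Hk1 rows differed in sign in 12, and over the 5 genes 32 of 130 differences did. In the incubator, E2 minus IgG was -0.19 ± 0.05 in the first row (adjusted p = 0.0550) and 0.061 ± 0.15 in the second. Bnip3, a mitochondrial protein of the hypoxia response, was called between sets in the row among its own chromosome's rows (adjusted p = 0.00608) and not in its brightest row (0.197). Pgam1 was called in its brightest row (0.0346) and not in the other (0.151). With these rows for all 5 genes, 9 of the 12 enzymes had the order of IgG 3, E2 1 and E2 2 highest, and 24 of the 34 genes were called between sets.

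Other genes of the pathways were read from further lists. Of 36 tested further targets of the factor, 22 were called between sets, as were 9 of 18 further enzymes at or next to glycolysis, 5 of 7 of the pentose phosphate pathway, 7 of 15 of pyruvate handling and lactate or proton transport, 14 of 21 of energy and glucose sensing and 6 of 15 regulators of oxygen sensing, against 41.9% of all genes. Ero1a, which oxidizes proteins in the endoplasmic reticulum, had set means of 11.76, 11.70 and 11.00 in the IgG arm and 10.69, 10.71 and 11.71 in the E2 arm. Hmox1, the inducible heme oxygenase, had 12.22, 12.47 and 11.37 and 11.42, 11.26 and 12.60. Lox, the collagen cross-linking lysyl oxidase, had 12.12, 12.09 and 12.49 and 12.30, 12.26 and 12.10. These were the 3 further targets with the smallest p in the F test. Ero1a and Hmox1 ran with Stc2, and Lox with Stc1 and the glycolytic enzymes, so the targets of the factor did not share 1 direction between sets.

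Platform against incubator in the IgG arm, the fit with the block called 1 of the 15 genes of pyruvate handling, Pdp1, the phosphatase that activates pyruvate dehydrogenase (-0.29 ± 0.06, limma, adjusted p = 0.0391), and 1 of the 21 of energy sensing, Arrdc4, an arrestin-like regulator of glucose uptake (-0.23 ± 0.05, adjusted p = 0.0446). Over both arms it called Arrdc4 (-0.17 ± 0.04, adjusted p = 0.0359) and Lox (-0.11 ± 0.02, adjusted p = 0.0359). These were lower on the platform, as Adm and Stc1 were, and no gene of the other lists was called in these fits. Over all genes, 0.587% were called lower and 0.117% higher in the IgG arm, and 0.566% and 0.104% over both arms. For E2 against IgG in the incubator, without the block, the calls were Kdm4c, a histone demethylase (-0.37 ± 0.09, adjusted p = 0.0435), Slc2a8, the glucose transporter Glut8 (0.35 ± 0.09, adjusted p = 0.0464), and Slc16a1, the lactate transporter Mct1 (-0.20 ± 0.05, adjusted p = 0.0468). The lists hold 7 to 36 tested genes each. Over all genes, 1.6% were called higher and 1.32% lower in that comparison, so these calls do not set the lists apart.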

How the data were processed

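Arrays were hybridised with biotin-labelled cRNA from Trizol-extracted RNA, per the labels' protocols, and MAS5 is named in the submitters' processing notes. The deposited table holds log2 intensities per array row, with array medians between 6.48 and 6.65. How the arrays were scaled to one another is not given in the sources used here, and the number of arrays limits the precision.

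Of 35556 rows, 21789 have 1 gene symbol in the array's probe annotation. A row was kept where 3 or more arrays had it at or above their own 40th percentile, with the brightest row per gene (14489 genes). All tests are two-sided (limma 3.58.1, R 4.3.3, eBayes with trend) on 8 group means of 3 arrays, checked on simulated data. The fit with the replicate block has a term for each set. The title numbers were taken to pair arrays within an arm because all 36 pairs of 1 number correlated above 0.1, against 12 of 36 (IgG) and 11 of 36 (E2) pairs of different numbers. Between arms, equal numbers correlated at -0.748 to -0.0141 (48 pairs).

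The genes and lists were chosen with earlier results of these data known. Named are called genes, up to 4 with the smallest p per comparison, and the 8 widest and 3 narrowest set ranges. Adm, Stc1 and Hif1a were named on the mean of positions for both arms after their values were seen, and of the further lists the called genes and, for the sets, the 3 further targets with the smallest p are named. Isoenzyme protein sequences were not analysed here. Alternatives were other scaling, filtering, row choice, variance trend, blocks and left-out sets.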

Additional observations from a re-analysis of the deposited data

How the results depend on the processing

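With all arrays and no block, none of the 34 genes was called in any comparison of groups. With the replicate block within arm, the count on the mean of positions became 2 in the IgG arm and 2 over both arms. With the block it was 2 in each with the mean of a gene's rows or with rows of the gene's own chromosome, and 1 in each after quantile normalization, with no filter on dim rows or with no variance trend. Leaving out 1 set with the block gave 0 to 3 in the IgG arm and 0 to 1 over both arms. It also gave up to 1 for IgG 1g and up to 2 for IgG 2g against C (without E2 1), and up to 1 for ug against 2g in the E2 arm (without IgG 2 or E2 1, and 1 without the IgG arrays numbered 2 at 2g and ug). E2 against IgG in the incubator gave 2 without IgG 3. The shares of all genes called in these fits with arrays left out are not given here, so the counts cannot be set against a background. A block over all arrays by number alone, the set as a random block (correlation 0.35) and fits on the compared arrays only called none. The block changed no other call.

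With rows of its own chromosome, Hk1 turned sign for E2 minus IgG in the incubator (0.061) and, with and without the block, for 2g minus 1g in the E2 arm (-0.017) and the IgG arm (-0.012) and for IgG 1g minus C (0.034), IgG 2g minus C (0.022) and the IgG mean of positions (0.010). Pfkl turned sign for IgG ug minus 2g without IgG 1, and its values with a set left out ran from -0.32 to 0.0056 with and without the block. Those of Bnip3 for that comparison ran from -0.62 to 0.12, and those of Ndrg1 on the IgG mean of positions from -0.0028 to 0.094. Stc2 was at -0.043 on that mean without the IgG arrays numbered 2 at 2g and ug and no block. The other recomputed differences of genes named for a comparison kept their sign, 2475 on the same side of the threshold and 31 past it. The rows with the block combined with another choice, and the rows of the gene's own chromosome, were added after the data were seen. With 3 arrays a group and an unstated culture source, small differences were not detectable in the fit without the block, and dim genes such as Car9 lie near the background of the array.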
